A study of Mus musculus with 8 samples.

Results

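The genes described here are the liver X receptor (LXR), cholesterol efflux and esterification genes, a group of 10 genes listed by name for their roles in this pathway. The list uses no measured value as a criterion, but it was drawn up with earlier results of these data known. They are Nr1h3, Nr1h2, Abca1, Abcg1, Abcg5, Abcg8, Soat1, Soat2, Lcat and Scarb1, out of 56748 genes in the deposited table, and all 10 were among the 14279 genes with enough counts to be tested. RNA was sequenced from mouse primary hepatocytes cultured for 24 h on a soft (1 kPa) or a stiff (20 kPa) collagen-coated polyacrylamide hydrogel, with 2 libraries in each of 4 groups. All mice were C57BL/6J Yap fl/fl; Taz fl/fl animals, with both floxed alleles also in the controls, and received virus at 7 to 8 weeks of age, 10 days before the cells were isolated. The knockout (KO) groups came from mice given AAV8-TBG-Cre, in which the hepatocyte promoter TBG drives Cre, and the wild-type (WT) groups from mice given AAV8-TBG-Null, which carries no Cre. Other liver cells therefore keep both genes, and the study's methods place a Cre-activated tdTomato reporter in the same mouse line. The series' design text describes the mice as female, whereas the growth protocol and the study's methods describe them as male. The labels do not say whether the 2 libraries of a group came from separate animals or cultures, so the p-values measure the spread between these libraries, which may be technical.

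LXRα (Nr1h3) and LXRβ (Nr1h2) are nuclear receptors that bind oxysterols and act on DNA as heterodimers with a retinoid X receptor. In the liver they raise transcription of the transporters that move cholesterol out of the cell, among them ABCA1 and ABCG1, which load lipid onto apolipoprotein A-I and high-density lipoprotein (HDL), and the ABCG5 and ABCG8 heterodimer, which secretes sterols into bile. Cholesterol that stays in the cell is esterified by the acyltransferases SOAT1 and SOAT2 and stored in droplets or packed into lipoproteins, while LCAT, a plasma enzyme made by hepatocytes, esterifies cholesterol on HDL and SR-BI (Scarb1) takes HDL cholesteryl ester back up.

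Library totals ranged from 18324083 to 26442310 counts, at which the limit that a count of 0 allows, 3 counts, came to between 0.113 and 0.164 CPM, the depth-scaled count. Yap1 was between 95.5 and 140 normalized CPM in the WT libraries and between 28.4 and 31.8 in the KO libraries, and Wwtr1, which encodes TAZ, was between 41.5 and 65.2 and between 13.7 and 16.6, so each KO library was below every WT library for both targets. A normalized CPM is scaled to the library total after TMM correction. Hepatocyte markers, of which 9 were used, summed to between 87269 and 92270 CPM in the WT and between 59873 and 60600 in the KO libraries, the highest sum of any marker list in all 8. That sum was mostly Alb, and members of the list differed in direction. Hnf4a averaged 372 CPM in WT soft, 189 in WT stiff, 423 in KO soft and 426 in KO stiff libraries, and Tat, at 57.0, 34.7, 77.1 and 70.2 CPM, likewise had higher means in both KO groups than in both WT groups. Cps1, at 89.2, 75.7, 49.7 and 47.2 CPM in the same order, had lower means in both KO groups, as did Alb. Markers of other liver cells were present at far lower summed levels, and their values are given beside the results they touch.

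The promoters of the group show how its genes are arranged. RefSeq windows on GRCm38.p6, of 250 bases before and 50 after a start site, were found for 7 of the 10 genes, in 9 windows, with 2 each for Nr1h3 and Abcg8. The pair Abcg5 and Abcg8 is shown because the 2 genes are transcribed away from each other out of the same stretch of chromosome 17, and the Abcg5 window shares 209 bases with 1 of the 2 Abcg8 windows and 0 with the other, chr17:84676052-84676351, which is not printed. Capitals mark GGAATG or its reverse complement CATTCC, the core of the motif bound by TEAD factors, the DNA-binding partners of YAP and TAZ. The Abcg5 window is chr17:84682962-84683261 on the minus strand, and the Abcg8 window printed is chr17:84682871-84683170 on the plus strand.

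Abcg5: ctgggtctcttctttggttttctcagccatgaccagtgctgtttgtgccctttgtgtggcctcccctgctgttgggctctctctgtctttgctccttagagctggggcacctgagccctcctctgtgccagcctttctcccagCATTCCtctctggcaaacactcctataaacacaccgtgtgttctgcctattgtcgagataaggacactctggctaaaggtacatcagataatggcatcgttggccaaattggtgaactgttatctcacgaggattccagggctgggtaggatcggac

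Abcg8: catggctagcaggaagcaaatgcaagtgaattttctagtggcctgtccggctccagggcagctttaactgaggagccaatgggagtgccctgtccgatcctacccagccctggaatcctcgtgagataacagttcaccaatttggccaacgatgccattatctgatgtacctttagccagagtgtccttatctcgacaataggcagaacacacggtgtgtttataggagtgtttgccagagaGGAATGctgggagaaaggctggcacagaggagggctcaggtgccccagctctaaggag

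The 1 match in the Abcg5 window lies at position -107 from its start and is the same 6 bases as the match at position -8 of Abcg8, read on the other strand. Lcat held a further match at -249, so 3 of the 9 windows carried these letters, against 14.7% of 32851 windows of the same length. The Abcg5 and Abcg8 windows count the same site, and the 2 Nr1h3 windows also overlap. The 9 windows are therefore not separate, and 3 of 9 does not show an excess. An LXR response element is built from nuclear receptor half-sites, of which the exact spellings AGGTCA and GGGTCA were searched. These letters occurred on neither strand of any of the 9 windows, against 16.3% and 13.7% of all windows. Half-sites spelled otherwise were not searched, in Abca1 or elsewhere, so their absence does not show that a window lacks an LXR response element. A match is a description of letters and not a bound site, and these windows hold only the bases nearest the start. The Abca1 window is shown because Abca1 is the textbook LXR target of the group and its promoter carries 2 GC boxes (GGGCGG, in capitals), at -163 and -97, in chr4:53159846-53160145 on the minus strand.

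Abca1: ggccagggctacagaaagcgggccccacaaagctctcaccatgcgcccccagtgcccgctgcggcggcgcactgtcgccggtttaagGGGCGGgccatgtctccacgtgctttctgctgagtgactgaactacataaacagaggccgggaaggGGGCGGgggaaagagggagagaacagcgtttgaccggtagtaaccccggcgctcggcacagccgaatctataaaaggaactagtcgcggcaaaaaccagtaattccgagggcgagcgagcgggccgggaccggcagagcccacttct

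GC boxes were found in 2 of the 9 windows, those of Abca1 and Soat1, against 35.7% of all windows. All counts covered both strands, and the motifs were not required to stand apart from each other.

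Per base of gene length the 10 genes covered a wide range, which is plotted as RPKM (normalized CPM divided by the gene length in kilobases) in each library. On this scale of levels in WT hepatocytes on the soft hydrogel, Lcat stood highest at 102 ± 4.07 RPKM (SD, n = 2), followed by Soat2 at 38.5 ± 0.598, Nr1h2 at 24.0 ± 1.495 and Nr1h3 at 21.4 ± 1.71. Scarb1 at 11.4 ± 0.790 and Abca1 at 11.2 ± 0.297 did not separate beyond the spread of their libraries. Abcg8 at 1.12 ± 0.263 and Abcg5 at 0.971 ± 0.249 overlapped as well, and Abcg1 at 0.371 ± 0.0506 and Soat1 at 0.140 ± 0.00292 were lowest.

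On the stiff hydrogel the place of Soat2 in this order differed in WT cells. There Soat2, at 14.2 ± 0.598 RPKM, stood in place 4, below both Nr1h2 at 22.4 ± 0.100 and Nr1h3 at 15.9 ± 0.409, with no overlap between any of these libraries. In the KO groups Soat2 stood in place 2 on either hydrogel, at 43.9 ± 4.36 and 47.9 ± 0.890 RPKM. Abcg5 and Abcg8 overlapped on the stiff hydrogel in WT cells as well, and in the KO groups no neighbours in the order overlapped. The second esterification enzyme differed in scale, since Soat2 exceeded Soat1 per length by a ratio of 276 ± 1.48 in WT soft, 208 ± 5.57 in WT stiff, 235 ± 30.9 in KO soft and 464 ± 8.94 in KO stiff libraries.

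**Figure D1:**
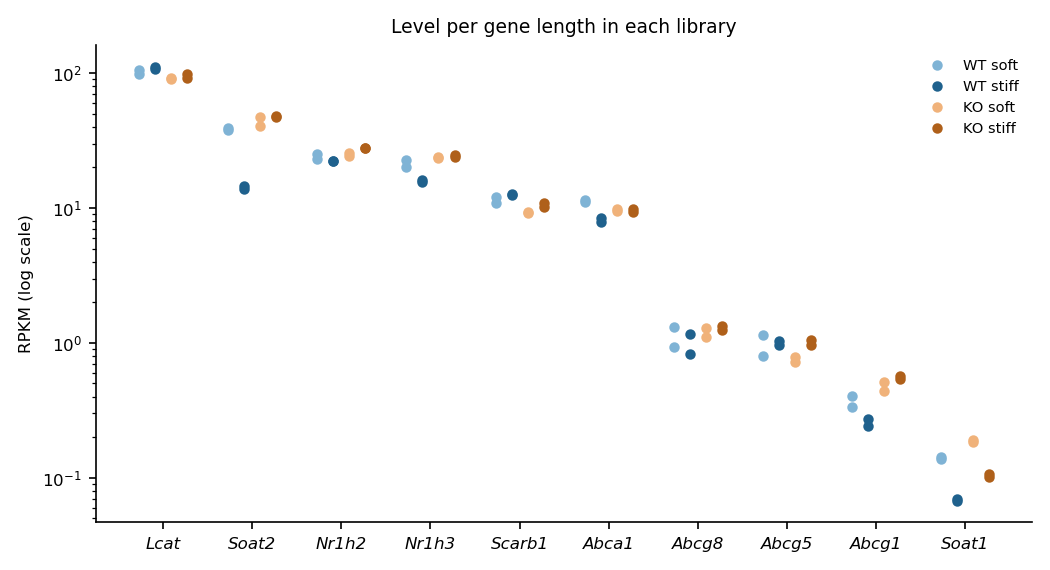
Level per gene length of the 10 genes (RPKM, log scale) in each of the 8 libraries, with a color for each group. Lcat is highest, near 102 RPKM in WT soft libraries, Soat1 lowest at 0.140, and the WT stiff points of Soat2, at 14.2, stand apart from the other 3 groups.

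The first comparison asks how substrate stiffness changes gene expression in WT hepatocytes. Between the WT stiff and WT soft libraries, 2 of the 10 genes were called, which means a Benjamini-Hochberg adjusted p under 0.05 in edgeR's quasi-likelihood test and an absolute log2 fold change over 0.5. Both, Soat2 and Soat1, were lower on the stiff hydrogel. Of all genes tested 19.3% were called in this comparison, 9.26% of them lower and 10.0% higher as shares of all genes, so 2 of 10 is close to the background share. The median log2 fold change of the 10 genes was -0.31, beside -0.0087 over all 14279 genes.

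Among the receptors, Nr1h3 (ENSMUSG00000002108, chromosome 2, 91014406 to 91033179, minus strand, positions as the deposited table gives them) was at 50.7 and 56.8 CPM in the WT soft and at 39.3 and 40.8 in the WT stiff libraries. Both stiff libraries were below both soft libraries. The log2 difference was -0.42 ± 0.066 (SE), with an edgeR adjusted p of 5.20e-05, short of the fold threshold. Nr1h2 (ENSMUSG00000060601, chromosome 7, 44199040 to 44203375, minus strand) was at 77.1 and 84.2 CPM on the soft and at 75.3 and 74.8 on the stiff hydrogel. The groups did not overlap, but the difference of -0.10 had an interval from -0.22 to 0.017 and an edgeR adjusted p of 0.166. The level of Nr1h3 relative to Nr1h2, per length, was 0.888 ± 0.0158 in WT soft and 0.712 ± 0.0215 in WT stiff libraries (SD, n = 2).

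Among the efflux transporters, Abca1 (ENSMUSG00000015243, chromosome 4, 53030787 to 53159895, minus strand) was at 119 and 114 CPM in the WT soft and at 82.3 and 87.9 in the WT stiff libraries. The groups were well apart, with a log2 difference of -0.45 ± 0.054 and an edgeR adjusted p of 1.83e-06, also short of the fold threshold. Abcg1 (ENSMUSG00000024030, chromosome 17, 31276649 to 31336962, plus strand) rested on few counts, 77 and 44 in the soft and 41 and 35 in the stiff libraries, or 2.97 and 2.44 against 1.98 and 1.78 CPM. Both stiff libraries were the lower ones, and the log2 difference of -0.54 had an interval from -1.05 to -0.026 and an edgeR adjusted p of 0.0875.

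The biliary pair Abcg5 and Abcg8 showed no separation by stiffness. Abcg5 (ENSMUSG00000040505, chromosome 17, 84965662 to 84990439, minus strand) had 56 and 56 counts in the soft and 54 and 55 in the stiff WT libraries, and Abcg8 (ENSMUSG00000024254, chromosome 17, 84983730 to 85007761, plus strand) had 127 and 63 against 64 and 86. In CPM these were 2.16 and 3.11 against 2.60 and 2.79 for Abcg5 and 4.89 and 3.50 against 3.09 and 4.37 for Abcg8, so the groups overlapped for both genes. The intervals of the log2 difference, from -0.48 to 0.59 for Abcg5 and from -0.66 to 0.27 for Abcg8, are wide, and at this depth a rise of Abcg5 or a fall of Abcg8 of the size of the fold threshold could not have been told from no change. In the deposited table the 2 genes overlap by 6710 bases on opposite strands, and since the sources used here do not say how strand entered the counting, reads there may have been assigned to either or to neither.

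Esterification enzymes carried both calls. Soat2 (ENSMUSG00000023045, chromosome 15, 102058961 to 102071904, plus strand), the acyltransferase of hepatocytes and enterocytes, was at 84.3 and 86.1 CPM in the WT soft and at 32.3 and 30.4 in the WT stiff libraries. The groups were far apart, and Soat2 fell by 1.44 ± 0.069 on the log2 scale, 2.71-fold, with an edgeR adjusted p of 8.38e-12. Only 2.55% of all genes had a lower log2 fold change. Soat1 (ENSMUSG00000026600, chromosome 1, 156252095 to 156301901, minus strand), the acyltransferase found in most tissues, had 35 and 25 counts in the soft and 14 and 13 in the stiff WT libraries, or 1.35 and 1.39 against 0.675 and 0.660 CPM. Both stiff libraries were lower, with a log2 difference of -1.03 ± 0.38 and an edgeR adjusted p of 0.0365. That call was not stable, as the adjusted p was 0.154 with DESeq2 and between 0.0991 and 0.124 in edgeR when any 1 of the 4 WT libraries was left out.

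The genes that act on HDL had positive estimates, neither of which passed the test. Lcat (ENSMUSG00000035237, chromosome 8, 106666183 to 106670014, minus strand) was at 133 and 141 CPM on the soft and at 144 and 149 on the stiff hydrogel, a log2 difference of 0.092 with an edgeR adjusted p of 0.169. Scarb1 (ENSMUSG00000037936, chromosome 5, 125354151 to 125418158, minus strand) was at 92.4 and 102 against 105 and 108 CPM, a log2 difference of 0.14 with an edgeR adjusted p of 0.0628. The stiff libraries were the higher ones for both genes, by less than the thresholds.

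**Figure D2:**
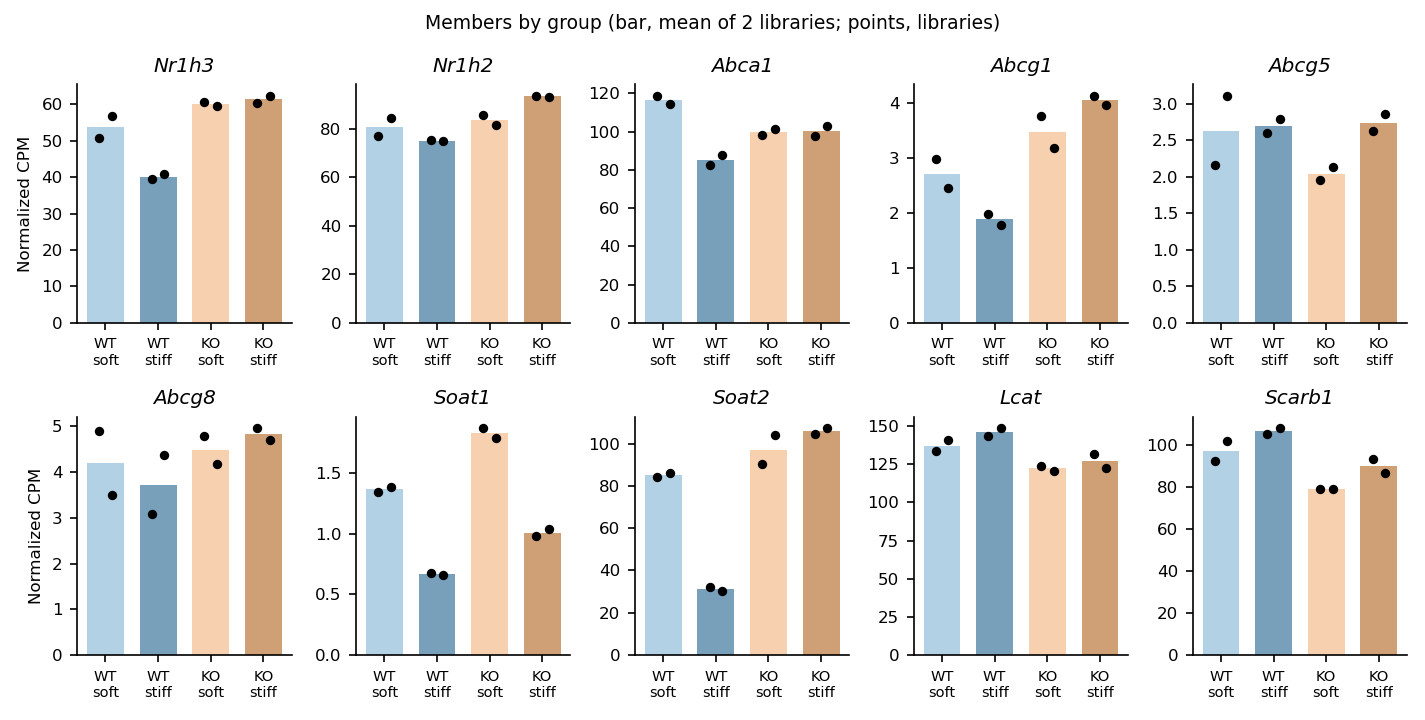
Normalized CPM of each of the 10 genes by group, with a bar for the mean of 2 libraries and a point for each library, on axes that start at 0 and differ between panels. Soat2 was at 32.3 and 30.4 CPM in the WT stiff libraries and between 84.3 and 107 in the other 6, and Soat1 was the lower on the stiff hydrogel in both genotypes.

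The same comparison in KO hepatocytes asks whether stiffness acts where Yap and Taz are deleted. None of the 10 genes was called between KO stiff and KO soft libraries, where 0.0210% of all genes were called by edgeR, 3 genes in all, so calls were rare among all genes too. At an unadjusted p under 0.05, 3 of the 10 genes passed in edgeR, beside 7.54% of all genes, and DESeq2 called none of the 10. These were Scarb1 with a log2 difference of 0.19, Nr1h2 with 0.16 and Soat1 with -0.86.

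Soat2 was at 90.4 and 104 CPM in the KO soft and at 105 and 107 in the KO stiff libraries. The KO stiff values lay just above the KO soft values, and the log2 difference of 0.13 had an interval from -0.0032 to 0.26. Nr1h3 overlapped between the KO groups, at 60.6 and 59.4 against 60.3 and 62.3 CPM, and so did Abca1, at 98.0 and 101 against 97.6 and 103 CPM. The intervals of these 2 differences, from -0.10 to 0.16 for Nr1h3 and from -0.11 to 0.12 for Abca1, did not reach the WT estimates of -0.42 and -0.45.

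Soat1 was the exception among the genes that were lower on the stiff hydrogel in WT cells. Its counts were 48 and 36 in the KO soft and 21 and 21 in the KO stiff libraries, or 1.87 and 1.79 against 0.984 and 1.04 CPM. Both KO stiff libraries were again lower, with an edgeR adjusted p of 0.610 for the log2 difference of -0.86 ± 0.34. Abcg1, at 3.75 and 3.18 against 4.12 and 3.95 CPM, and Abcg5, at 1.95 and 2.14 against 2.62 and 2.87 CPM, were higher in both KO stiff libraries, without passing the test. Nr1h2 was at 85.5 and 81.3 CPM in the KO soft and at 93.5 and 93.2 in the KO stiff libraries, and Scarb1 at 78.8 and 79.1 against 93.2 and 86.5, so that the stiff libraries were the higher ones for both. Abcg8 overlapped at 4.80 and 4.18 against 4.96 and 4.69 CPM, and so did Lcat at 124 and 121 against 132 and 123.

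The difference between the 2 stiffness effects was tested directly as an interaction, the KO effect minus the WT effect. Soat2 was the 1 gene of the 10 called, where 16.8% of all genes were called and 8.64% were called with a positive difference, with an interaction of 1.57 ± 0.093 (log2) and an edgeR adjusted p of 4.22e-10. Abca1 followed at 0.46 ± 0.076 with an adjusted p of 0.000137, Nr1h3 at 0.45 ± 0.091 with 0.00105 and Nr1h2 at 0.26 ± 0.079 with 0.0172, all below the fold threshold. For Abcg1 the interaction was 0.75, with an interval from 0.073 to 1.43 and an edgeR adjusted p of 0.0911. For Soat1 it was 0.17 with an interval from -0.89 to 1.23, so its stiffness effects in the 2 genotypes were neither shown to differ nor shown to be alike.

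**Figure D3:**
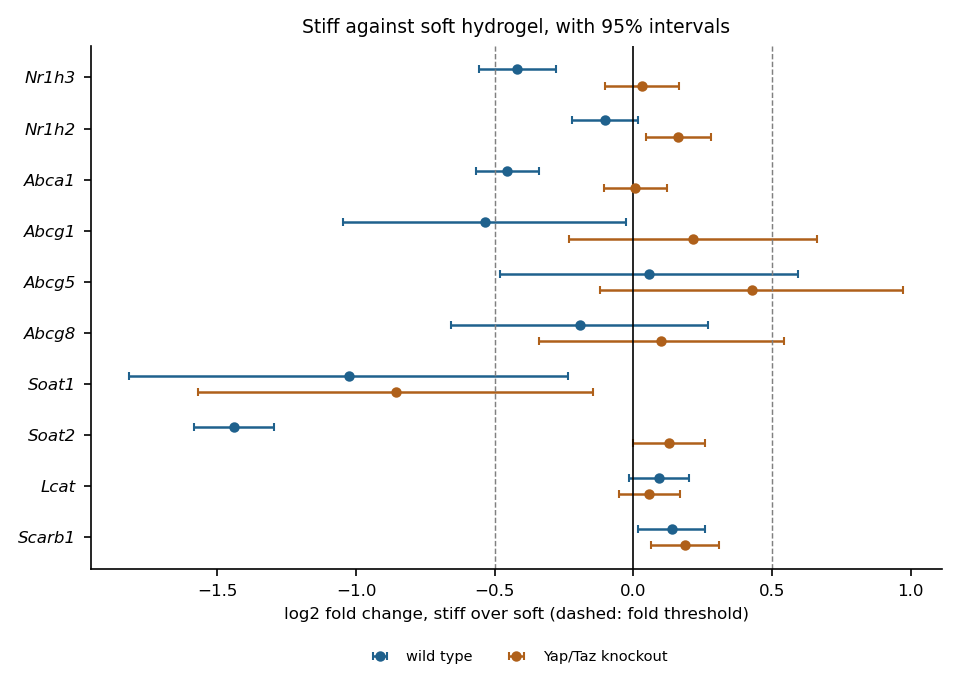
Log2 fold change of stiff over soft for each gene, in WT and in Yap/Taz KO hepatocytes, with 95% intervals as bars and the fold threshold of 0.5 dashed. Soat2 lies at -1.44 in WT and 0.13 in KO cells with intervals far apart, while the Soat1 intervals of the 2 genotypes overlap broadly.

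The KO and WT groups were next compared on each hydrogel. These comparisons share their libraries with those above, so their values stand side by side and are not further evidence. On the soft hydrogel none of the 10 genes was called by edgeR, with 6.67% of all genes called, 5 of the 10 and 29.6% of all genes at an unadjusted p under 0.05, and none of the 10 called by DESeq2. Scarb1 was at 92.4 and 102 CPM in the WT and at 78.8 and 79.1 in the KO libraries, a log2 difference of -0.30 with an edgeR adjusted p of 0.00108. The log2 difference was -0.23 for Abca1 with an edgeR adjusted p of 0.00505, -0.17 for Lcat with 0.0322 and 0.19 for Soat2 with 0.0432.

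On the stiff hydrogel 3 of the 10 genes were called, where 28.7% of all genes were, so the count is again near the background. All 3 were higher in the KO libraries, as were 13.7% of all genes. Soat2, at 32.3 and 30.4 CPM in WT and 105 and 107 in KO libraries, rose by 1.76 ± 0.068 on the log2 scale, 3.38-fold, with an edgeR adjusted p of 1.97e-13. Nr1h3, at 39.3 and 40.8 against 60.3 and 62.3 CPM, rose by 0.61 ± 0.066 with an edgeR adjusted p of 3.10e-07. Abcg1, at 1.98 and 1.78 against 4.12 and 3.95 CPM, rose by 1.10 ± 0.23 with an edgeR adjusted p of 0.000672. In all 3 cases both KO libraries were above both WT libraries, which follows closely from the calls and is not further evidence.

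Of the other genes on the stiff hydrogel, Nr1h2 differed by 0.32 and Abca1 by 0.23 (log2, KO over WT), with edgeR adjusted p of 0.000124 and 0.00142, below the fold threshold. The order of Abca1 thus turned with the hydrogel, since KO libraries were the lower ones on the soft and the higher ones on the stiff hydrogel. Scarb1 at -0.25 and Lcat at -0.20, with edgeR adjusted p of 0.00146 and 0.00337, were lower in KO libraries on the stiff hydrogel as they were on the soft one. Abcg5, Abcg8 and Soat1 had log2 differences of 0.024, 0.38 and 0.59 with intervals that included 0.

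**Figure D4:**
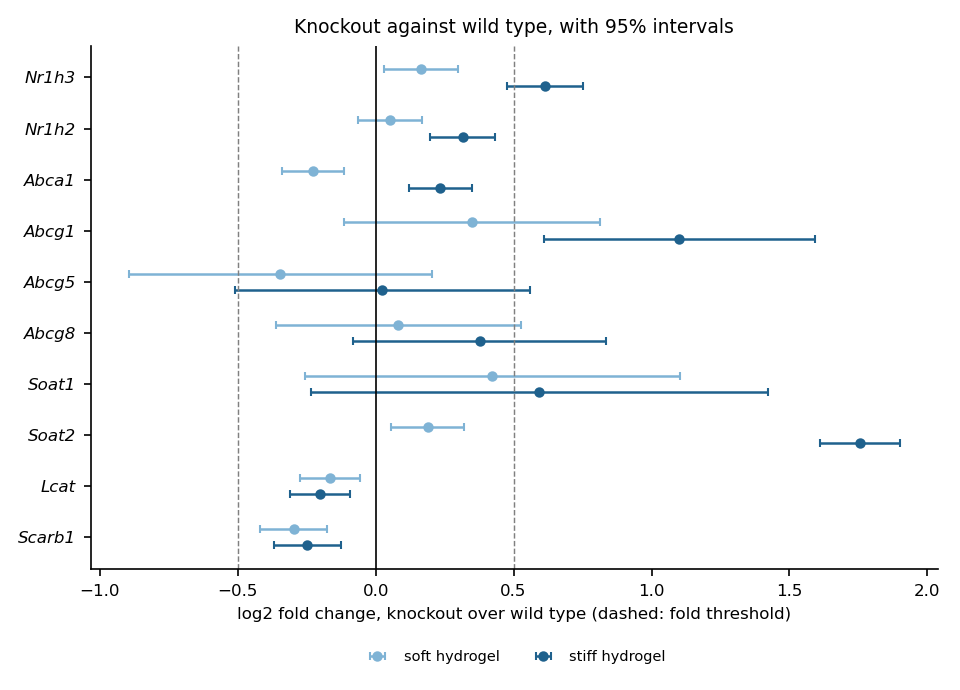
Log2 fold change of KO over WT for each gene, for the soft and for the stiff hydrogel, with 95% intervals as bars and the fold threshold of 0.5 dashed. Soat2 moves from 0.19 on the soft to 1.76 on the stiff hydrogel, and Abca1 from -0.23 to 0.23, while Scarb1 and Lcat lie below 0 on both.

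The summed markers of macrophages, endothelial cells and stellate cells, but not those of cholangiocytes, were lowest in WT stiff and highest in KO libraries. Nr1h3 and Abcg1 had this order, but it was not particular to them. The group means of Nr1h2, Abcg8 and Soat2 had it too, as did those of Hnf4a and Tat among the hepatocyte markers. The hepatocyte list as a whole did not have it. Of its 9 genes, 6 were lower and 3 higher in KO than in WT cells on the soft hydrogel, and 5 lower and 4 higher on the stiff one. Soat2 averaged 85.2 CPM in WT soft, 31.4 in WT stiff, 97.2 in KO soft and 106 in KO stiff libraries. Abca1, at 117, 85.1, 99.7 and 100 CPM in that order, was highest in WT soft libraries instead. Soat1, at 1.37, 0.668, 1.83 and 1.01 CPM, was lower in KO stiff than in WT soft libraries, so it did not have this order either. Single markers named here were chosen after their values were seen. The 12 Kupffer cell and macrophage markers summed to between 102 and 106 CPM in WT soft, 70.5 and 77.3 in WT stiff, 149 and 151 in KO soft and 152 and 154 in KO stiff libraries. Of them 7 were called lower between WT stiff and WT soft and 11 were called higher in KO than in WT cells on the stiff hydrogel, beside 9.26% and 13.7% of all genes. None was at 0 in all libraries, and of the defining markers Clec4f had 12 to 98 counts and Timd4 0 to 21.

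The sum of the 8 endothelial markers ran the same way, between 58.6 and 61.9 CPM in WT stiff against 83.6 and 89.7 in WT soft and 111 to 117 in the KO libraries, although Oit3 was at a log2 difference of 0.36 in WT stiff over WT soft. So did the sum of the 8 stellate cell and fibroblast markers, at 23.6 to 25.3 in WT stiff against 34.4 in WT soft and 47.8 to 53.9 in the KO libraries, of which Lrat, the defining gene of quiescent stellate cells, had 0 to 4 counts. In that list Col1a1 was called higher in WT stiff than in WT soft libraries, at 0.78 (log2), and Acta2 was at 0.44, against the direction of the sum. The 6 cholangiocyte markers, with Cftr at 0 in all 8 libraries, summed to between 548 and 584 CPM in WT soft, 599 and 602 in WT stiff and 320 and 348 in the KO libraries, mostly from Spp1. Krt19 of that list averaged 2.13 CPM in WT soft and 20.6 in WT stiff libraries, called higher at 3.30 (log2), and 0.637 and 0.697 CPM in the KO groups. The part of the cells with these markers in the values of Nr1h3, Abcg1 or any other of the 10 genes was not tested. In bulk RNA fewer cells of a type and less RNA per cell cannot be told apart.

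**Figure D5:**
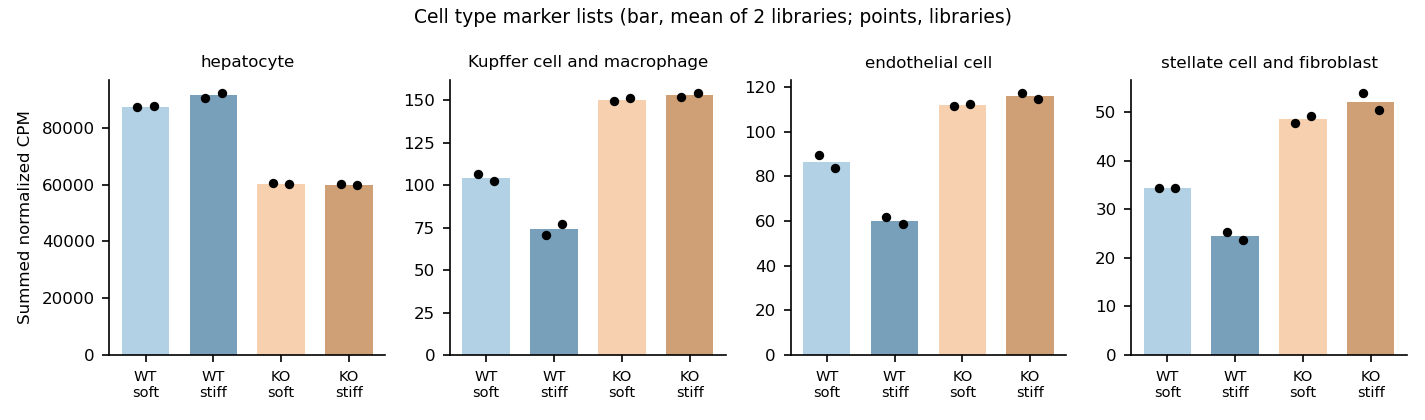
Summed normalized CPM of 4 cell type marker lists by group, with a bar for the mean of 2 libraries and a point for each library, on axes that start at 0. The Kupffer cell and macrophage, endothelial and stellate cell sums are lowest in WT stiff and highest in KO libraries, and the hepatocyte sum, above 59873 CPM in every library, is lower in the KO groups and mostly reflects Alb.

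Genes around the pathway are given by list. None of the 15 tested partners and cofactors of LXR, such as the receptor partners Rxra, Rxrb and Rxrg and the corepressor Ncor1, was called between WT stiff and WT soft libraries. Of all genes, 19.3% were called there. Not being called did not mean no difference, as 8 of the 15 had an unadjusted p under 0.05 in edgeR. In direction, 9 of the 15 estimates were lower and 6 higher on the stiff hydrogel. Ncor1 at -0.39 (log2) and Rxrb at -0.30 had edgeR adjusted p of 2.68e-06 and 0.00357, short of the fold threshold. On the stiff hydrogel Rxrb, Ncor1 and Nrip1 were called higher in KO cells, at log2 differences of 0.57, 0.54 and 0.63, and Rxrg lower, at -0.71, beside 28.7% of all genes called. The lists' members were chosen with earlier results of these data known, so their counts are a description.

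Of 14 other LXR target genes tested, 6 were called lower and 1 was called higher on the stiff hydrogel in WT cells, beside 9.26% and 10.0% of all genes. The 6 were Srebf1 at -0.67 (log2), which encodes SREBP1, Mlxipl at -1.19, which encodes ChREBP, the fatty acid synthesis genes Fasn at -1.17 and Acaca at -1.43, Lpl at -0.63 and Mylip at -1.10, which encodes the LDL receptor ligase IDOL. Arl4c was called higher at 0.92. Several of these genes act in fatty acid synthesis rather than in sterol transport. None of the 14 was called between the KO groups, where only 0.0210% of all genes were called. On the stiff hydrogel 5 were called higher and 3 lower in KO than in WT cells, beside 28.7% of all genes called in either direction.

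Among the genes of HDL assembly, remodelling and docking, 2 of 12 were called lower on the stiff hydrogel in WT cells and 1 higher, close to the 19.3% of all genes called in either direction. Lipc, hepatic lipase, was at -0.92 (log2), Pdzk1, the scaffold that holds SR-BI at the membrane, at -1.11, and Pcolce2 at 0.75, beside 0.14 for Scarb1 itself. In KO against WT cells on the stiff hydrogel Lipc was at 1.02 and Pdzk1 at 1.37, whereas Scarb1 was at -0.25, and Pltp, the phospholipid transfer protein, was called lower on both hydrogels at -1.30 and -1.47.

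The genes of cholesteryl ester hydrolysis and storage had 5 of 12 called lower and 1 higher in WT stiff libraries, beside 9.26% and 10.0% of all genes. Lipa, the lysosomal acid lipase that hydrolyses cholesteryl ester, was at -0.82 (log2), and the carboxylesterases Ces1d, Ces1f and Ces1g were at -0.85, -0.51 and -0.77. Pnpla3 was at -0.81 and Lipe, hormone-sensitive lipase, was the 1 called higher, at 0.68. Lipa, on the hydrolysis side of the ester cycle, and Soat2, on its synthesis side, were thus called lower in the same comparison. On the stiff hydrogel Lipa was at 1.06 and Plin2, a lipid droplet coat protein, at -0.64 in KO over WT cells.

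Of 14 intracellular sterol transport genes, 3 were called lower in WT stiff libraries, the oxysterol-binding Osbpl1a at -0.83 (log2), Gramd1c at -0.55 and Scp2 at -0.81, and 1 higher, Cav1, which encodes caveolin-1, at 1.95, beside 19.3% of all genes called in either direction. In KO over WT cells on the stiff hydrogel the endosomal cholesterol exporters split, with Npc1 at 0.87 and Npc2 at -0.68. Of 10 tested lipid transporters of the ABC family outside the group, Abcb4, the canalicular phospholipid transporter on which biliary cholesterol secretion depends, fell by 1.75 on the log2 scale in WT stiff libraries, Abca8a and Abca8b were called lower at -1.10 and -1.35, and Abcg2 was called higher at 1.33, beside the same 19.3%. No gene of these 6 lists was called between the KO groups, where only 0.0210% of all genes were called.

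Over the 8 libraries, the genes whose log2 CPM ran most like that of Soat2 were Xpot (Pearson's r = 0.998), Gcgr (0.998), the glucagon receptor, and Abcb1a (0.998), and 1583 of 10036 genes compared had an r over 0.9. The nearest to Nr1h3 was Ralgps2 (0.996) among 1469 such genes, and to Abca1 it was Apob (0.984) among 123. Abcg5 and Abcg8 did not run together across libraries, at an r of -0.40, and only 8 and 5 genes had an r over 0.9 with them. Lcat and Scarb1 had an r of 0.97. These values describe 8 libraries of 4 groups that share depth and group differences, with counts as low as 43 for Abcg5.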

How the data were processed

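Polyadenylated RNA reads of 8 libraries were aligned by the authors with HISAT2 2.0.5 and assigned to genes with featureCounts. Their deposited counts are raw, 1 column per library, beside gene lengths and positions. How strand and reads shared between genes were counted is not given in the sources used here. The submitters' notes list mm9 among the builds, but only 1 of the 10 genes lies at its GENCODE M21 (GRCm38) position while all 10 have the same span and strand, so positions are those of the table. No 64-base window of 9 of the genes occurs in another gene's transcript, and 0.313% of those of Soat1 do.

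The members and lists were chosen with earlier results of these data known. Counts were filtered with filterByExpr by group, scaled by TMM and fitted for all 8 libraries with edgeR 4.0.16 in R 4.3.3 (glmQLFit, 4 residual degrees of freedom, common biological coefficient of variation 0.0542). Contrasts used glmQLFTest with Benjamini-Hochberg adjustment over 14279 genes, and a gene was called at an adjusted p below 0.05 with a log2 fold change beyond 0.5 in either direction. Intervals are 95% intervals of the log2 fold change. RPKM used the deposited gene lengths. All 10 members, Yap1 and Wwtr1, the called genes of each list and the 3 genes most like a member by Pearson's r of log2 CPM, among genes with a mean of at least 100 counts, could be named. DESeq2 1.42.0, other scalings, filters, fold thresholds, a term for the replicate number and each library left out in turn were the alternatives. The steps were tested on simulated data. Figures were drawn with matplotlib 3.10.9. Floors cover counting error only. Replicate libraries differed by more than sampling noise in each group (chi-square per degree of freedom 2.62 to 5.45), and library totals ranged from 18324083 to 26442310 counts.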

Additional observations from a re-analysis of the deposited data

Results flagged for a closer look

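For 4 of the 10 genes the stiffness effect differed between KO and WT hepatocytes in the interaction term of the edgeR fit, at a Benjamini-Hochberg adjusted p under 0.05, which 29.4% of all genes also passed, so the count is near the background. The difference, KO effect minus WT effect on the log2 scale, was 1.57 for Soat2, 0.46 for Abca1, 0.45 for Nr1h3 and 0.26 for Nr1h2, with edgeR adjusted p of 4.22e-10, 0.000137, 0.00105 and 0.0172. In WT cells these genes stood at -1.44, -0.45, -0.42 and -0.10 (log2, stiff over soft) and in KO cells at 0.13, 0.0071, 0.030 and 0.16. Soat2 alone also passed the fold threshold of 0.5.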

How the results depend on the processing

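The counts of members called were within 1.5 times the reported count under the other scalings, the other low-count filters, the stricter fold threshold, robust empirical Bayes and edgeR on the libraries compared. Between WT stiff and WT soft libraries the count of 2 was 1 with DESeq2 on all 8 libraries and 1 with DESeq2 on the libraries compared, Soat2 in both cases, and 4 with no minimum fold change, where 41.0% of all genes passed. With no minimum fold change it was 4 for the interaction (29.4% of all genes) and 7 on the stiff hydrogel (51.1%), and on the soft hydrogel, where no member was called as reported, it was 4 (18.4%). Nr1h3 in KO against WT cells on the stiff hydrogel was not called at a threshold of 1. Leaving out 1 library at a time gave 1 to 2 members called for WT stiff against soft and 1 to 2 for the interaction, where Nr1h3 joined Soat2 without WT soft replicate 1 and Abca1 did without WT stiff replicate 2.

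Differences near 0 changed sign. Abca1 between the KO groups was -0.0016 (log2) with DESeq2 and -0.00135 with edgeR on the libraries compared, and -0.0054 with no low-count filter. With 1 library left out, Abca1 ran from -0.039 to 0.041 and Nr1h3 from -0.0012 to 0.050 between the KO groups, Abcg5 from -0.20 to 0.33 and Abcg8 from -0.46 to 0.095 between the WT groups, Abcg8 from -0.0023 to 0.55, Lcat from -0.089 to 0.0048 and Scarb1 from -0.033 to 0.11 in the interaction, Nr1h2 from -0.0092 to 0.11 and Abcg8 from -0.12 to 0.37 in KO against WT on soft, and Abcg5 from -0.051 to 0.082 on stiff. The cause was not tested, and none of these had passed the test.

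Same-numbered libraries did not deviate together between groups (correlations from -0.10 to 0.042), so no pairing was seen. Counting noise lowers such correlations, so they cannot exclude a shared animal, isolation or day. A replicate block left the members called as they were, at 2, 0, 1, 0 and 3 in the order of the comparisons, and moved the count over all genes to 2705, 3, 2330, 895 and 4071 from 2754, 3, 2405, 952 and 4103. Between the KO groups the count of 3 genes over the whole table was 50 with no low-count filter and 9 with edgeR on the libraries compared, and for KO against WT on soft DESeq2 on those libraries called 616 of 13094. With 2 libraries a group, and 13 to 127 counts for Soat1, Abcg1, Abcg5 and Abcg8, depth limits what can be said of these 4 genes.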
